A study of Mus musculus with 2 samples.

Results

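Oxidative phosphorylation subunits are the proteins of the mitochondrial respiratory chain and of ATP synthase, and their genes were followed here through the cells of healing fracture callus. Members were taken by gene symbol: nuclear genes starting with Ndufa, Ndufb, Ndufc, Ndufs, Ndufv, Uqcr, Cox4i, Cox5, Cox6, Cox7, Cox8 or Atp5, and the protein-coding mitochondrial genes starting with mt-Nd, mt-Co, mt-Cytb or mt-Atp. The rule gave 103 of 32285 genes, of which 90 were nuclear and 13 mitochondrial. Among the nuclear members, 37 belonged to complex I, 8 to complex III, 20 to complex IV and 17 to ATP synthase. A further 8 members named Ndufaf are assembly factors of complex I and not subunits. Ndufa4 and Ndufa4l2 carry complex I symbols but were counted with complex IV, where Ndufa4 is now placed. UMIs (unique molecular identifiers, each marking 1 captured transcript) were found for 89 nuclear members in library MGJ and for 87 in library MGJ2. Cox7b2 had none in either library, Cox8b had 30 in MGJ only and Cox8c had 2 in MGJ only, so these tissue-restricted complex IV genes were not detectable or barely detectable at this depth.

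The series held 2 single-cell RNA libraries, MGJ and MGJ2, of callus from wt (wild-type) mice given a femoral fracture. The design text names callus of 5 mice at 10 days and of 5 mice at 20 days after fracture, but the labels tie neither library to a day, so the libraries were described side by side and never compared as time points. Cells carry no mark of the mouse they came from, so each library counted as 1 sample, there was no replicate, and no test between cell classes could be made. Kept were barcodes in which at least 200 genes were seen, at most 20% of UMIs were mitochondrial and no doublet was called, so that 13320 of 14295 barcodes remained in MGJ and 7584 of 8009 in MGJ2. The deposited tables held 135304426 and 61130834 UMIs, the kept cells had a median of 5657.5 and 4932.5 UMIs, and 13 kept barcodes occurred in both libraries. Doublet calls made up 1.04% and 2.84% of cells, below the 10.8% and 6.24% that these cell loads would give, so mixed cells remained. Levels are given as CPM, the members' UMIs per 1000000 UMIs of all cells of a class, with exact 95% intervals that cover counting error only. Each UMI stands for a molecule at these 3′ ends, so levels were not divided by transcript length.

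The respiratory chain passes electrons from NADH and succinate to oxygen through complexes I to IV, and the proton gradient it builds drives ATP synthase. Most subunits are encoded in the nucleus, while a small set at the core of complexes I, III, IV and V is encoded by mitochondrial DNA, so both genomes have to supply parts of the same machines. In bone, osteoclasts are known for dense mitochondria, neutrophils for few, and chondrocytes for living with little oxygen and relying on glycolysis.

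Promoters were available from RefSeq (GRCm38.p6) for 74 of the 90 nuclear members, as 79 windows from 250 bases before to 50 bases after the start of transcription. Members without an entry included Atp5a1, Atp5mpl, Cox4i1, Cox4i2, Cox6a2, Cox6c, Cox8c, Ndufa2, Ndufa4l2, Ndufaf6, Ndufb9, Ndufs1, Uqcrb, Uqcrc2 and Uqcrq. Windows were searched on both strands for letters of factors known from respiratory genes. The letters of the NRF1 motif, which read the same on both strands, occurred in 7 of 79 member windows (8.86%) and in 0.971% of all 32851 windows. The ETS and GABPA letters CCGGAAG occurred in 17 (21.5%) against 8.86% of all windows, and the YY1 letters AAGATGGC in 11 (13.9%) against 2.75%. The ETS letters end and the YY1 letters begin with the same bases, so 1 stretch can hold both. The core of the hypoxia response, ACGTG, occurred in 19 member windows (24.1%) against 19.6% of all, and TATAAA in 9 (11.4%) against 13.6%. The member windows had a median GC content of 57.7%, against 52.7% over all windows, and GC-rich letters are found more often in GC-rich windows.

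The 250 bases before the start are printed for 4 members, with the NRF1, ETS and YY1 letters or their reverse complements in capitals. Cox6a1 and Atp5j are shown because these 250 bases held at least 2 of the 3 letter sets; Atp5k and Ndufaf8 reached 2 sets only over the whole window. Ndufa4 and Atp5l are shown because they had the widest and narrowest range of levels among the 17 members with at least 50 UMIs in every cell class of MGJ. The Cox6a1 stretch (chr5:115348959-115349208, minus strand) held the NRF1 letters 162 bases before the start and the reverse complement of the ETS letters 16 bases before it. The Atp5j stretch (chr16:84834977-84835226, minus strand) held the YY1 letters at 88 and the ETS letters at 61 bases before the start. The other Atp5j window (chr16:84835576-84835875), at the annotated 5′ end of the gene (84835625), held none of the 3 sets. The Atp5l stretch (chr9:44920743-44920992, minus strand) held the ETS reverse complement at 212 bases, and the Ndufa4 stretch (chr6:11907451-11907700, minus strand) held none of the 3 sets, which says only that these letters are not in it.
Cox6a1: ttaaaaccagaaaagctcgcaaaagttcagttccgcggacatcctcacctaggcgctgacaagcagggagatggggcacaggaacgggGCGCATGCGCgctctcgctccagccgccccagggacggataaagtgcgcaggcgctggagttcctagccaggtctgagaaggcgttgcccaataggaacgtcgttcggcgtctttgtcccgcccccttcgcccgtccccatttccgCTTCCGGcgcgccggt
Ndufa4: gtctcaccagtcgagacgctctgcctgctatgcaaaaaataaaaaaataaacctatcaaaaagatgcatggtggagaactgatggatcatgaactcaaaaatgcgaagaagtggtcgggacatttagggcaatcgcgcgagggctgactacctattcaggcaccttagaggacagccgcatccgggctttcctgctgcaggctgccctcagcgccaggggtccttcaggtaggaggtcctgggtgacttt
Atp5l: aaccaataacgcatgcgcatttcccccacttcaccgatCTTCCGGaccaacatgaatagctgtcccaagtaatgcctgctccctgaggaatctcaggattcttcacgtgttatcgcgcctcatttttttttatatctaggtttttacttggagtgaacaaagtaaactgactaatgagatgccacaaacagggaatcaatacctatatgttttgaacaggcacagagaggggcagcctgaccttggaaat
Atp5j: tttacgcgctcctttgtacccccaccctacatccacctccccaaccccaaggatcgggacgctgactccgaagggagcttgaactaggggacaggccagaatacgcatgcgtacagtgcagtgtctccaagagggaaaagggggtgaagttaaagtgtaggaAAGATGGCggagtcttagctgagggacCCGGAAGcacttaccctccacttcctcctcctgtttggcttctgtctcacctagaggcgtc

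Nuclear members differed widely in summed level between cell classes, and the order was led by osteoclast-like cells, the bone-resorbing cells. In MGJ the nuclear members reached 42556 CPM in the 110 osteoclast-like cells (interval 42299 to 42813). They followed at 24399 CPM in myeloid progenitor-like cells, 23025 CPM in pre-B-like cells and 20859.7 CPM in pericyte and smooth muscle-like cells. The middle of the order was flat, from 19399.6 CPM in dendritic-like to 14691 CPM in fibroblast-like cells, and chondrocyte-like cells stood within it at 17192 CPM (2467 cells). The lowest levels were found in immature neutrophil-like cells (11038 CPM), erythroid-like cells (10888 CPM) and neutrophil-like cells (5914 CPM, interval 5820 to 6009). Cell by cell, however, the median erythroid-like cell held 0.186% of its UMIs in nuclear members, below the 0.509% of the median neutrophil-like cell. The pooled level of the 75 erythroid-like cells thus stood above that of their typical cell. Among the 18 named classes with at least 50 cells, the highest level was 7.20 times the lowest.

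In MGJ2 the same classes stood at both ends. The 62 osteoclast-like cells held nuclear members at 47474 CPM, followed by myeloid progenitor-like cells at 24299.5 CPM and pre-B-like cells at 22206 CPM. Chondrocyte-like cells held 14358 CPM (132 cells), and its interval overlapped those of NK-like (14389.5 CPM), monocyte-like (14357 CPM), endothelial-like (14284 CPM) and T-like cells (14244 CPM). B-like cells held 11823 CPM, immature neutrophil-like cells 11669.9 CPM and neutrophil-like cells 5894 CPM, an 8.06-fold range over 13 classes. At the coarser clustering immature neutrophil-like cells held 7047 CPM in MGJ and 7019.9 CPM in MGJ2. In MGJ the intervals of neighbours overlapped for dendritic-like with T-like cells, along the run of tendon-, chondrocyte-, NK-, osteoblast- and monocyte-like cells, for endothelial-like with B-like cells, and for immature neutrophil-like with erythroid-like cells. Osteoclast-like cells kept the first place under every alternative way of filtering and clustering tried, in both libraries. Neutrophil-like cells kept the last place in MGJ2 but ranged from rank 16 to rank 18 in MGJ. Fewer member transcripts and more of other RNA cannot be told apart on this scale, since CPM is relative to all UMIs of the class.

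**Figure D1:**
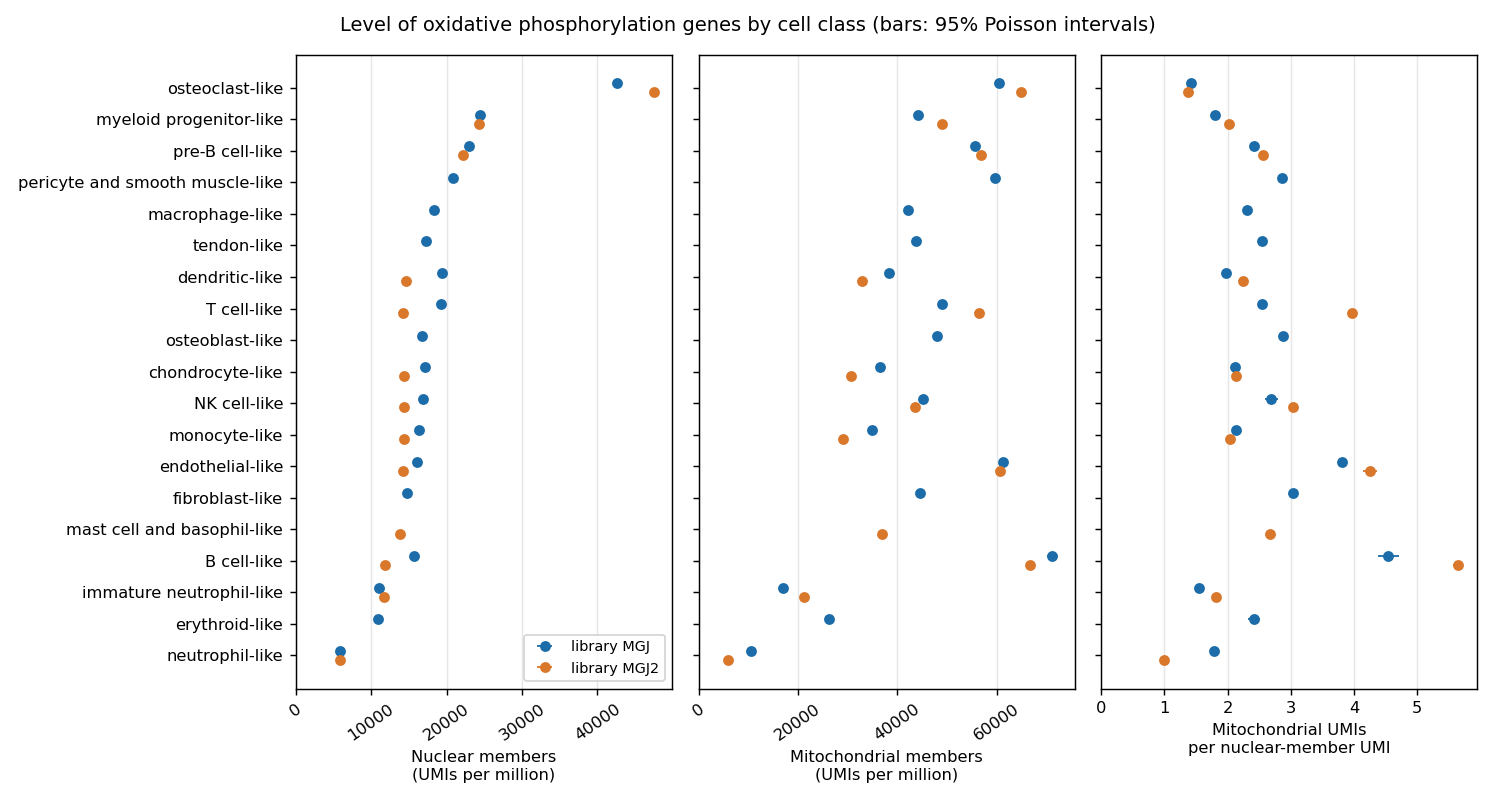
Summed CPM of the nuclear members, summed CPM of the mitochondrial members and their ratio (horizontal axes, linear from 0) in each named cell class with at least 50 cells (vertical axis), with 1 point per library and bars for 95% Poisson intervals. Nuclear members were highest in osteoclast-like cells (42556 and 47474 CPM) and lowest in neutrophil-like cells (5914 and 5894 CPM), while B-like cells had the highest mitochondrial level per nuclear level.

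The 13 mitochondrial members followed another order. In MGJ they were highest in B-like cells at 71235 CPM, then in endothelial-like cells at 61303 CPM, osteoclast-like cells at 60437 CPM and pericyte and smooth muscle-like cells at 59710.3 CPM. In MGJ2 they stood at 66648 CPM in B-like, 64892 CPM in osteoclast-like and 60715 CPM in endothelial-like cells. B-like cells kept rank 1 under the alternatives in MGJ but ranged from rank 1 to rank 3 in MGJ2. Chondrocyte-like cells held 36436 and 30685 CPM, in the lower part of the order in both libraries. Neutrophil-like cells were again lowest, at 10544 CPM in MGJ and 5852 CPM in MGJ2, next to immature neutrophil-like cells at 17010.3 and 21191 CPM. Under the alternatives neutrophil-like cells stayed last in MGJ2 and ranged from rank 16 to rank 18 in MGJ. With doublet calls kept the neutrophil-like level of MGJ2 was 10229 CPM, and at the coarser clustering the immature neutrophil-like level of MGJ2 was 10525 CPM. The cap of 20% mitochondrial UMIs that selects cells is made from these same genes, so the upper end of their range was bounded by the filter.

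The ratio of mitochondrial to nuclear members, a measure that does not depend on the total UMIs of the class, separated the classes further. It was 4.54 in B-like cells of MGJ and 5.64 in MGJ2, and 3.80 and 4.25 in endothelial-like cells. It was 1.42 and 1.37 in osteoclast-like cells, which had the highest nuclear level. Chondrocyte-like cells had 2.12 and 2.14, and neutrophil-like cells had 1.78 in MGJ and 0.993 in MGJ2, the latter resting on the mitochondrial level that moved with the doublet calls. B-like cells therefore paired a mitochondrial level at or near the top with a nuclear level of 15698 and 11823 CPM, in the lower part of the order. Across the 12 classes found in both libraries the 2 libraries ranked the classes alike (Spearman 0.923 for the nuclear level, 0.986 for the mitochondrial level and 0.944 for the ratio). Across classes within a library the nuclear and mitochondrial levels were ranked less alike, with Spearman 0.430 over 18 classes of MGJ and 0.385 over 13 classes of MGJ2. These are descriptions, since classes of 1 library share its RNA background and depth.

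Among the mitochondrial genes, mt-Atp6, mt-Co3, mt-Co1 and mt-Co2 were the most abundant. Over all kept cells of MGJ they held 7895, 6853, 5786 and 5611 CPM, and over those of MGJ2 7115, 7016, 7397 and 5529.9 CPM. These genes encode a subunit of ATP synthase and the 3 catalytic core subunits of cytochrome c oxidase. The least abundant were mt-Nd6, the only member on the light strand of mitochondrial DNA, at 35.8 and 29.5 CPM, and mt-Atp8, which shares its transcript with mt-Atp6, at 38.8 and 69.4 CPM. Capture at 3′ ends cannot divide a shared transcript evenly, so the split between mt-Atp8 and mt-Atp6 and between mt-Nd4l and mt-Nd4 is uncertain. B-like cells were the highest class for 6 of 13 mitochondrial genes in MGJ and 5 in MGJ2, osteoclast-like cells for 4 and 5, and neutrophil-like cells the lowest for 11 and 13. In MGJ2 the core gene mt-Co1 stood at 13678 CPM in B-like against 9184 CPM in osteoclast-like cells, whereas the complex III gene mt-Cytb stood at 5264 against 8024 CPM. The order of the classes thus differed between genes of the same small genome.

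Osteoclast-like cells were set against monocyte-like cells, because osteoclasts form from the monocyte lineage. Nuclear members were higher in osteoclast-like cells almost throughout. All 17 ATP synthase genes and all 8 complex III genes were at least 1.5 times higher in both libraries, as were 34 (MGJ) and 36 (MGJ2) of 37 complex I genes. A gene was compared where the 2 classes together held at least 50 UMIs, which left 85 nuclear members in MGJ and 83 in MGJ2. Of these, 79 were at least 1.5 times higher in each library, against 38.8% of all compared genes in MGJ and 37.4% in MGJ2. In MGJ 1 member and in MGJ2 2 members were at least 1.5 times lower, against 22.9% and 30.2% of all genes. The median ratio over the nuclear members was 2.82 and 4.06, while the median over all genes was 1.21 and 1.11. Col2a1, the collagen of cartilage and a mark of free cartilage RNA, was low in both classes of MGJ (350 and 480 CPM), and the neutrophil gene S100a8 was at 563 and 2145 CPM. The osteoclast-like cells had a median of 21706 and 34310 UMIs against 6485 and 9258 in monocyte-like cells, and the part of depth in the ratios was not tested.

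Within complex I, Ndufab1, the acyl carrier protein of mitochondria, stood at 554 CPM in osteoclast-like and 88.8 CPM in monocyte-like cells of MGJ (ratio 6.24) and at 510.0 and 46.7 CPM in MGJ2 (10.9). Ndufa5, an accessory subunit, differed by 5.57 and 12.2 times. The assembly factor Ndufaf4 showed the widest gap among nuclear members at a low level, 51.1 against 5.88 CPM in MGJ (8.69, interval 6.24 to 12.3) and 66.9 against 3.02 CPM in MGJ2 (22.1, interval 15.5 to 32.2). In complex IV, Ndufa4 was at 1198 against 285 CPM (4.20) and 1458 against 268 CPM (5.45). Cox7a1, the muscle and heart form of a complex IV subunit, was low but higher in osteoclast-like cells, with 14.9 against 4.27 CPM and 20.8 against 3.78 CPM. In ATP synthase, Atp5g1, which encodes the membrane c subunit, was at 1089 against 232 CPM (4.69) and 927 against 109 CPM (8.47).

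A few members stood apart. Ndufb1-ps, a complex I gene that the GENCODE annotation lists as a noncoding RNA, had ratios of 1.16 and 1.29. Cox7a2l, which takes part in joining complexes III and IV into supercomplexes, had 1.65 and 1.17. The assembly factor Ndufaf7 (0.935 and 0.283) and Cox6b2, the testis form of a complex IV subunit (0.998 and 0.283), were not higher in either library. Ndufa4l2 was lower in MGJ, at 0.805 against 6.80 CPM, a ratio resting on 2 UMIs in osteoclast-like cells. All 13 mitochondrial members were above 1 in both libraries, 11 and 12 of them by at least 1.5 times, and their summed ratios of 1.73 and 2.23 were below those of the nuclear members, 2.59 and 3.31.

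The lists around the members stand beside shares over all genes of 38.8% and 37.4% higher and 22.9% and 30.2% lower. All 4 genes of complex II and all 13 genes of the tricarboxylic acid cycle were at least 1.5 times higher in osteoclast-like cells of both libraries. The medians for the cycle were 4.51 and 4.49. Among the assembly genes of complex IV, 12 of 14 were higher and 1 lower in MGJ, and 14 of 16 were higher in MGJ2. ATP export (carriers and pores for ATP, ADP and phosphate) gave 6 and 5 of 6 genes higher, and cytochrome c with the coenzyme Q genes 8 of 9 and 8 of 10. Of the regulators of mitochondrial biogenesis, 3 of 6 were higher in each library, near the share over all genes, and none in MGJ and 2 in MGJ2 were lower. Of 15 glycolysis genes, 1 was higher and 4 lower in MGJ, and 9 were higher and 3 lower in MGJ2.

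Neutrophil-like cells were set against myeloid progenitor-like cells, which stand near the start of the same lineage. The nuclear members stood at 5914 against 24399 CPM in MGJ (ratio 0.242) and at 5894 against 24299.5 CPM in MGJ2 (0.243). Of 80 compared nuclear members in MGJ, 78 were at least 1.5 times lower, and of 84 in MGJ2, 82 were, where 60.5% and 65.5% of all compared genes were lower. None was at least 1.5 times higher, against 19.1% and 20% of all genes. The median ratio was 0.179 and 0.145 for the members and 0.457 and 0.328 for all genes, so most genes were lower on this scale and the members more so. Neutrophil-like cells gave 86374 and 50738 CPM to the single gene S100a8, against 12013 and 16577 CPM in myeloid progenitor-like cells, and had medians of 2410 and 2358 UMIs against 15566 and 27151; the part of either in the ratios was not tested.

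Members of ATP synthase spanned the contrast. Atp5g1 was at 0.0773 and 0.0435 of the progenitor-like level, and Atp5g2, a gene for the same c subunit, at 0.0671 and 0.0457. Atp5l, the g subunit near the membrane, was at 0.546 and 0.664. Atp5md, a small subunit that helps ATP synthase pair into dimers, held 178 against 228 CPM in MGJ (0.780, interval 0.691 to 0.880) and 456 against 353 CPM in MGJ2 (1.29, interval 1.22 to 1.37). Ndufa4 was at 44.9 against 781 CPM and at 31.0 against 930 CPM, ratios of 0.0575 and 0.0334. Ndufa7, an accessory subunit of complex I, was the other member within 1.5-fold, at 0.700 and 0.744. All 13 mitochondrial members were at least 1.5 times lower in both libraries, from 0.106 to 0.380 in MGJ and from 0.0732 to 0.170 in MGJ2. A large group of barcodes with few UMIs stayed unnamed although the neutrophil list fitted it best (3774 cells in MGJ and 49 in MGJ2), and its nuclear level of 5351 and 4908 CPM was close to that of the named class.

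All 13 genes of the tricarboxylic acid cycle and all 4 of complex II were at least 1.5 times lower in neutrophil-like cells of both libraries. ATP export gave 6 and 5 of 6 genes lower. Of 15 compared glycolysis genes, 4 in MGJ were lower and 1 higher, and 11 in MGJ2 were lower and 2 higher. Over all genes 60.5% and 65.5% were lower, so the glycolysis count of MGJ2 was near that share and the count of MGJ below it.

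**Figure D2:**
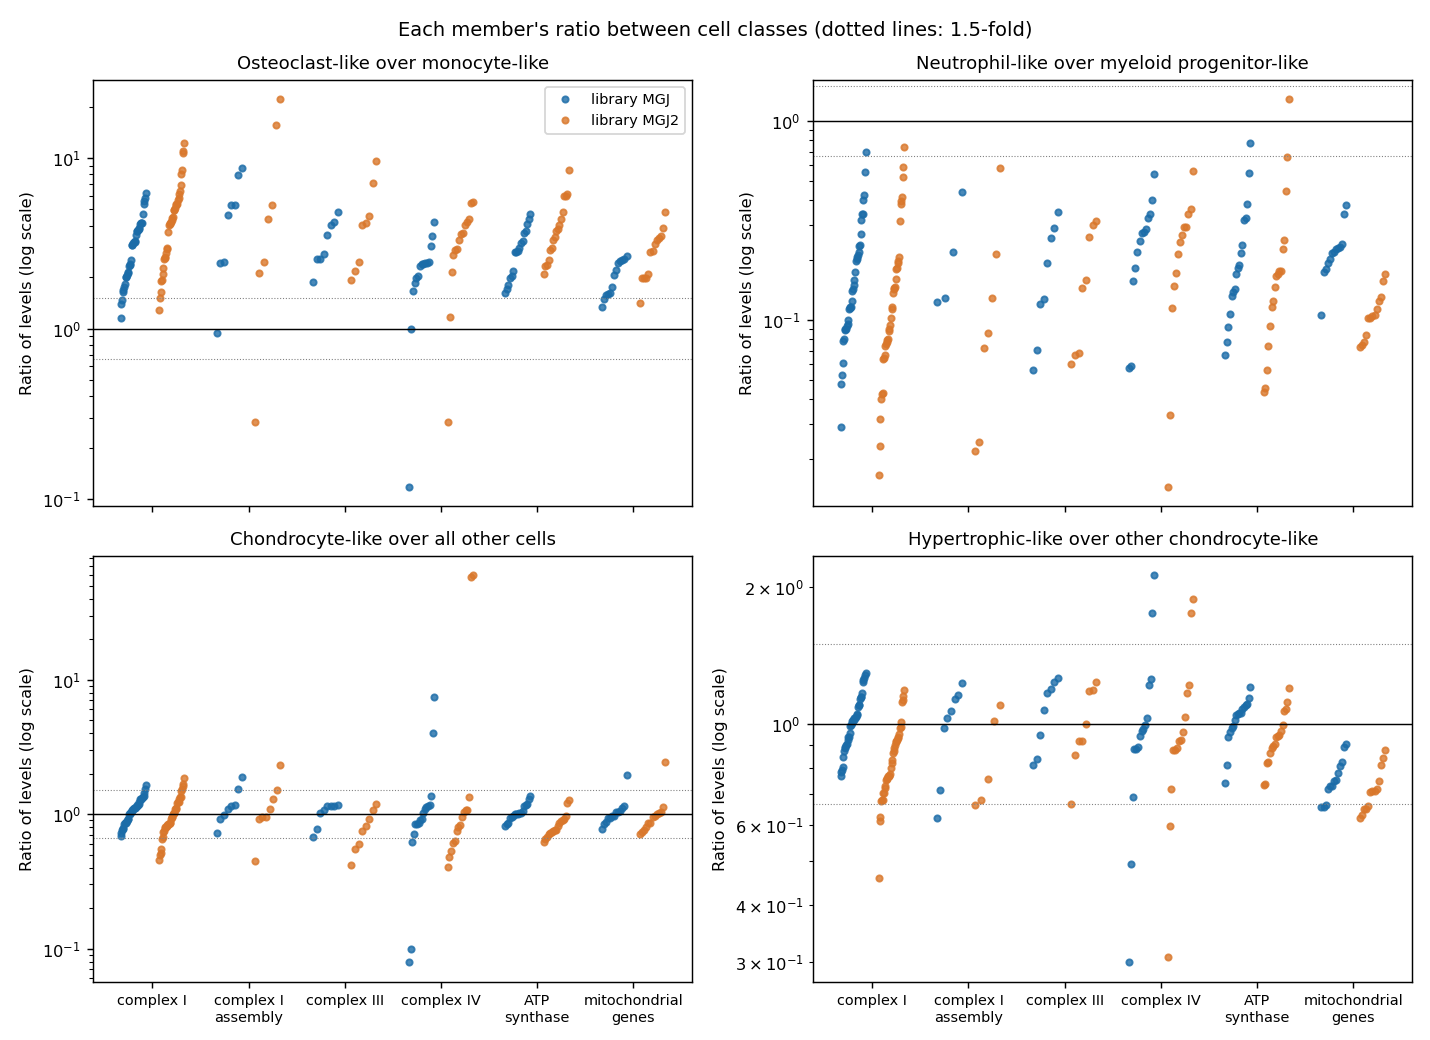
Ratio of levels between 2 cell classes for each member (points; vertical axis on a log scale), grouped by complex along the horizontal axis, in 4 comparisons with the libraries in separate colours and dotted lines at 1.5-fold. Osteoclast-like over monocyte-like ratios lie mostly above 1.5 and neutrophil-like over myeloid progenitor-like ratios mostly below, while chondrocyte-like ratios gather around 1 with Cox4i2 and Ndufa4l2 far above, and members without a UMI in the first class are not drawn.

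Single members differed in how strongly their level varied over all classes. Only members with at least 50 UMIs in every class of a library were ranked, which were 17 in MGJ and 43 in MGJ2, so members that were scarce in a small class were left out. In MGJ, Ndufa4 had the widest range, 26.7 times between osteoclast-like and neutrophil-like cells, followed by the ATP synthase genes Atp5a1 (21.2), Atp5d (13.3), Atp5j2 (12.0) and Atp5b (10.9). The narrowest were Atp5l (3.47), Atp5e (3.96), Cox8a (4.45), Cox7a2 (4.84) and Cox5b (5.33). In MGJ2 the widest were Atp5g1 (60.5), Ndufa4 (47.0), Atp5o (44.6), Atp5g3 (40.6) and Uqcrb (31.6), and the narrowest Ndufa2 (3.56), Ndufb1-ps (3.65), Atp5e (3.67), Atp5l (3.76) and Atp5md (3.86). Osteoclast-like cells were highest for 16 of 17 and 41 of 43 ranked members, and neutrophil-like cells lowest for 15 and 37. Atp5e and Atp5l, small subunits of the stalk and the membrane part, were thus at the narrow end of the ranked members in both libraries and Ndufa4 at the wide end.

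Chondrocyte-like cells carried the alternative forms of a pair of complex IV genes. Cox4i2 (chr2:152754173-152765037, plus strand, GRCm38) encodes the form of subunit 4 known from lung and from cells short of oxygen, and Cox4i1 (chr8:120668222-120674207, plus strand) the common form. The set of all other cells held every kept cell outside the class. It included unnamed sub-clusters of 269, 123 and 53 cells (both libraries together) that fitted the chondrocyte list best but were led by other markers. Unnamed cells held Col2a1 at 25164 CPM in MGJ and 16017 CPM in MGJ2, and their part in the ratios was not tested. Cox4i2 stood at 198 CPM in chondrocyte-like cells and 26.5 CPM in all other cells of MGJ (ratio 7.47, interval 7.12 to 7.83), and at 212 and 3.68 CPM in MGJ2 (57.7, interval 49.4 to 67.7). It made up 23.8% of the Cox4i1 and Cox4i2 UMIs of chondrocyte-like cells in MGJ (Clopper-Pearson 95% interval 23.4 to 24.2, 10148 of 42582 UMIs). In MGJ2 it made up 25.7% (interval 24.2 to 27.3, 797 of 3102 UMIs). In osteoclast-like cells, the class with the most Cox4i1, the share was 0.0471% and 0.0443%, on 2 UMIs in each library. Cox4i1 itself was at 0.854 and 0.748 of the level in the other cells, so the common form remained the main one.

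Ndufa4l2 (chr10:127514967-127517154, plus strand), a paralog of Ndufa4 (chr6:11900292-11907497, minus strand) known as a target of hypoxia signalling, showed a like pattern. It stood at 376 CPM in chondrocyte-like cells and 93.4 CPM in all other cells of MGJ (4.02, interval 3.92 to 4.13), and at 222 and 3.70 CPM in MGJ2 (60.2, interval 51.5 to 70.5). Ndufa4 moved the other way, with ratios of 0.843 and 0.403. Ndufa4l2 thus made up 55.8% (interval 55.3 to 56.4) and 55.6% (interval 53.0 to 58.1) of the pair's UMIs, more than the common gene over the class as a whole. Among the sub-clusters described below, its share was 49.6%, 48.7% and 49.2% in the largest of MGJ (845, 593 and 399 cells). It was 59.1%, 85.6% and 55.6% in the rest of MGJ. In MGJ2 it was 45.0% in 77 hypertrophic-like cells and 53.6% and 50.6% in the sub-clusters of 22 and 30 cells. The MGJ2 class share of 55.6% lay above each of these, so it was raised by the few of its 132 cells outside them. Thinned to 2000 UMIs per cell, 36.2% of chondrocyte-like cells of MGJ and 18.8% of MGJ2 held an Ndufa4l2 UMI, and 26.8% and 33.6% a Cox4i2 UMI. In neutrophil-like cells, which served as the background of free RNA, 0.733% and 0.290% held an Ndufa4l2 UMI and 0.366% and 0.217% a Cox4i2 UMI. Shallower cells were left out of this count (66 and 4 chondrocyte-like, 309 and 569 neutrophil-like cells). Without thinning the chondrocyte-like shares were 63.2% and 47.7% for Ndufa4l2 and 66.1% and 73.5% for Cox4i2, at median depths of 20767 and 27953 UMIs against 2410 and 2358 in neutrophil-like cells.

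Both forms were also found outside the chondrocyte-like class. In pericyte and smooth muscle-like cells of MGJ, Ndufa4l2 stood at 539 CPM, above the chondrocyte-like level, and made up 73.4% of its pair (interval 70.6 to 76.1, 754 of 1027 UMIs). Cox4i2 stood there at 187 CPM and made up 16.4%. Col2a1 in the same cells was at 7.08% of its chondrocyte-like level, while Ndufa4l2 was at 143% and Cox4i2 at 94.8%. Thinned to 2000 UMIs, 51.4% of these cells held an Ndufa4l2 UMI and 27.5% a Cox4i2 UMI. In tendon-like cells Ndufa4l2 made up 34.0% and Cox4i2 4.45%, in osteoblast-like cells 28.1% and 12.6%, and in erythroid-like cells 50% (61 of 122 UMIs) and 17.1%. Col2a1 in these classes reached 10.6%, 10.8% and 9.56% of the chondrocyte-like level, so cartilage RNA was present in them, and its part in their Ndufa4l2 and Cox4i2 UMIs was not tested. Other cartilage genes differed from Col2a1, with Acan at 32.9%, 8.23% and 13.3% and Col9a1 at 9.24%, 9.87% and 6.39% in the same order. In the immune classes of MGJ2, where Col2a1 was at most 0.305% of its chondrocyte-like level, Ndufa4l2 was at most 0.457% of its own.

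Cox6a2, the heart and muscle form of another complex IV subunit, marked another small group of cells. Within the dendritic-like class a cluster led by Siglech held 26 cells in MGJ and 65 in MGJ2. Cox6a2 (chr7:128205435-128206387, minus strand) stood there at 1615 CPM and 996 CPM. It made up 86.7% of the Cox6a1 and Cox6a2 UMIs in MGJ (interval 82.2 to 90.5, 242 of 279 UMIs) and 80.0% in MGJ2 (interval 77.0 to 82.7, 631 of 789 UMIs). In the whole dendritic-like class the shares were 58.6% (242 of 413) and 41.3% (635 of 1537), so all of its Cox6a2 UMIs in MGJ and nearly all in MGJ2 came from this cluster. Cox6a1 (chr5:115345642-115348981, minus strand), whose promoter is printed above, was the main form in the other named classes, where the Cox6a2 share was at most 5.41%, in pre-B-like cells of MGJ. Thinned to 2000 UMIs, 78.3% (18 of 23) and 53.8% (35 of 65) of the cells in the cluster held a Cox6a2 UMI, against 0 of 546 and 0 of 1381 neutrophil-like cells, for which the intervals allow up to 0.673% and 0.267%. Without thinning the shares were 88.5% and 76.9%. The cluster was found without using any member, so Cox6a2 took no part in its definition.

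**Figure D3:**
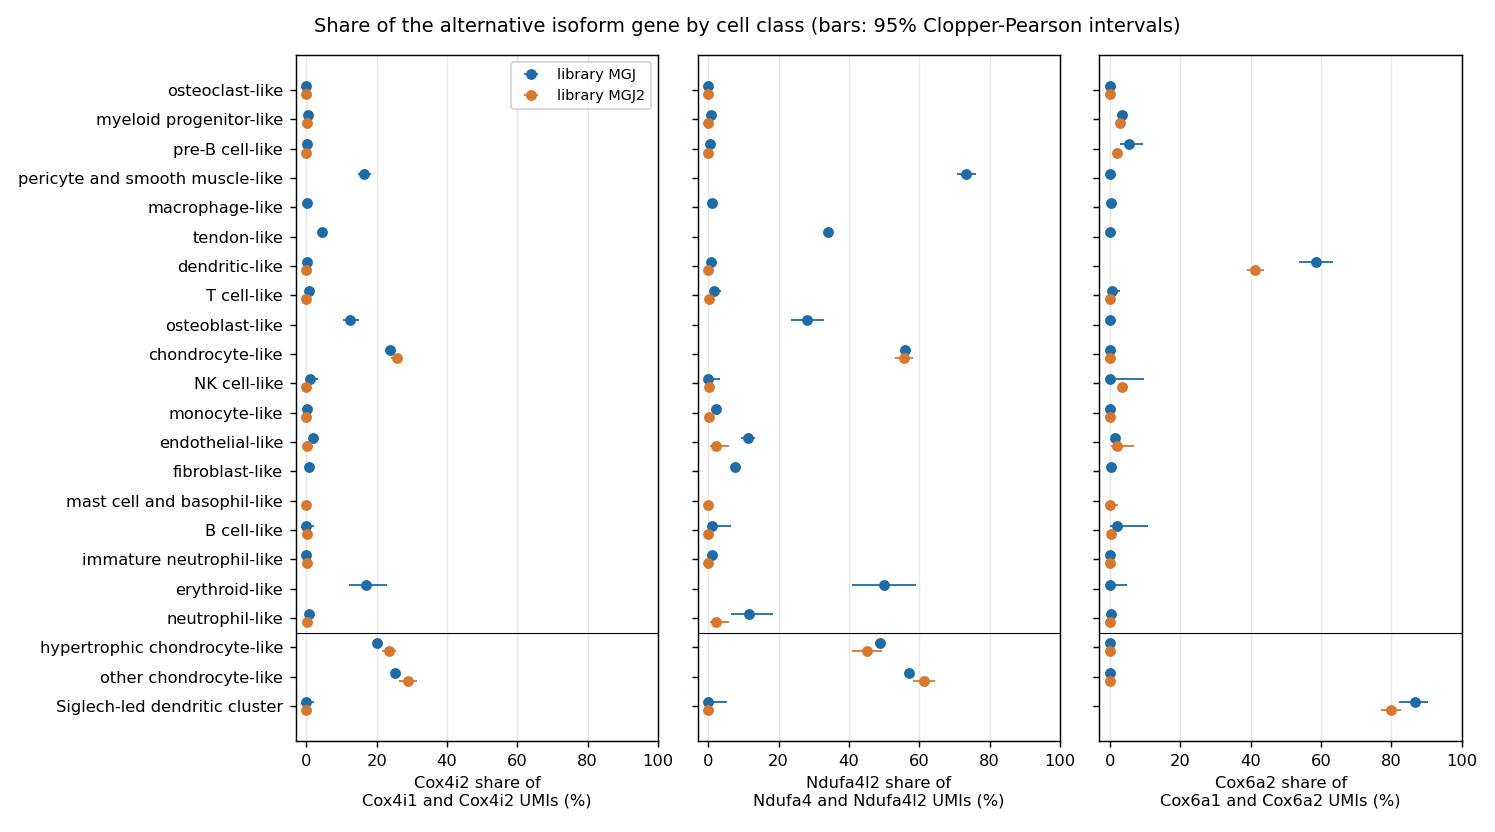
Share in percent of Cox4i2, Ndufa4l2 and Cox6a2 among the UMIs of the pair they form with their common counterpart (horizontal axes), by cell class (vertical axis) and library, with bars for 95% Clopper-Pearson intervals. Ndufa4l2 passed 50% over the whole chondrocyte-like class of both libraries (55.8% and 55.6%), a share raised by a few cells in MGJ2. It also passed 50% in pericyte and smooth muscle-like cells (73.4%), and Cox6a2 reached 86.7% and 80.0% in the Siglech-led cluster.

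The 3 genes of the ATP synthase c subunit, which encode the same mature protein, were used in different proportions. In osteoclast-like cells Atp5g1, Atp5g2 and Atp5g3 made up 40.7%, 28.3% and 30.9% of their UMIs in MGJ and 34.1%, 27.9% and 38.1% in MGJ2. In chondrocyte-like cells Atp5g2 led, with 44.5% and 51.7%, and Atp5g3 was lowest, with 18.6% and 20.0%. In immature neutrophil-like cells Atp5g2 made up 52.9% and 53.6% and Atp5g1 20.1% and 13.7%. Atp5g2 had the most UMIs of the 3 in every named class of at least 50 cells except osteoclast-like cells of both libraries and erythroid-like cells of MGJ, in some classes by a small margin (2074 against 2014 for Atp5g1 in monocyte-like cells of MGJ). Cox6b2 remained below its partner Cox6b1 everywhere, and among classes with at least 200 UMIs for the pair its highest shares were 5.35% in pericyte and smooth muscle-like cells of MGJ and 7.80% in myeloid progenitor-like cells of MGJ2. Cox7a1 reached 4.85% of the Cox7a1 and Cox7a2 UMIs in mast cell and basophil-like cells of MGJ2 (10 of 206).

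Apart from these isoform genes, the respiratory chain of chondrocyte-like cells stood close to that of all other cells together. The other cells again included the unnamed cells that held Col2a1. The summed nuclear level was 17192 against 16206 CPM in MGJ (ratio 1.06) and 14358 against 16166 CPM in MGJ2 (0.888). Of 87 compared nuclear members, 6 in MGJ and 8 in MGJ2 were at least 1.5 times higher, against 20.6% and 26.4% of all genes. At least 1.5 times lower were 3 in MGJ and 18 in MGJ2, against 35.6% and 42.4% of all genes. The median ratio was 1.05 and 0.865 for the members and 0.875 and 0.791 for all genes. The sum followed the weighting of the cells: with every cell weighted equally the ratio was 1.40 in MGJ and 1.14 in MGJ2, the latter on the other side of 1.

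The members that were higher besides Cox4i2 and Ndufa4l2 belonged to complex I and its assembly. Ndufaf4 was at 36.3 against 19.1 CPM (1.90) and 34.6 against 14.9 CPM (2.33), Ndufa5 at ratios of 1.64 and 1.86 and Ndufa8 at 1.54 and 1.68. Ndufs5 was at 1.43 in MGJ and 1.63 in MGJ2. On the low side, Cox5a, a subunit of complex IV, had 0.616 and 0.528, and Uqcrfs1, the iron-sulfur protein of complex III, 0.680 and 0.419. The muscle forms were nearly absent, with Cox6a2 at 0.0986 and Cox7a1 at 0.0790 of the other cells' level in MGJ, and neither had a UMI in the chondrocyte-like cells of MGJ2. This was not particular to the class. Of the other cells' 365 Cox6a2 UMIs in MGJ, 242 came from the Siglech-led cluster. Tendon-like cells of MGJ held 6 Cox6a2 and 5 Cox7a1 UMIs, and osteoblast-like cells 0 of either. The summed mitochondrial level was 36436 against 38122 CPM in MGJ (0.956) and 30685 against 37188 CPM in MGJ2 (0.825), with mt-Nd6 alone at least 1.5 times higher (1.94 and 2.42) and none lower by that much. With every cell weighted equally these sums stood at 1.26 and 1.12, on the other side of 1.

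The counts of the lists around the chain stand beside shares over all genes of 20.6% higher and 35.6% lower in MGJ and 26.4% higher and 42.4% lower in MGJ2, and several are near them. Complex II had 0 of 4 genes higher in either library (medians 0.821 and 0.644), with 0 and 2 lower, and the tricarboxylic acid cycle 0 of 13 higher and 1 and 5 lower. Glycolysis had 5 of 16 genes higher and 2 lower in MGJ and 8 higher and 2 lower in MGJ2. Hypoxia-linked genes were higher for 5 of 8 in MGJ and 5 of 7 in MGJ2, with medians of 1.90 and 3.08, and 2 and 1 were lower. Biogenesis regulators had 1 of 7 higher and 4 lower in each library.

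Hypertrophic chondrocyte-like cells, in which cartilage matures toward bone, were set against the other chondrocyte-like cells, with 593 against 1874 cells in MGJ and 77 against 55 in MGJ2. The 2 genomes differed. Nuclear members were nearly level, at 17733 against 17018 CPM in MGJ (ratio 1.04, median over 85 compared members 1.02) and 14019 against 14805.5 CPM in MGJ2 (0.947, median over 81 members 0.894). Mitochondrial members were lower in hypertrophic-like cells, at 30358 against 38383 CPM in MGJ (0.791) and 25902 against 36997 CPM in MGJ2 (0.700). All 13 mitochondrial genes were below 1 in both libraries, from 0.656 to 0.903 in MGJ and from 0.622 to 0.877 in MGJ2, and the summed ratio stayed below 1 under every alternative tried. The nuclear ratio of MGJ2 lay above 1 with no cap on mitochondrial UMIs and at the finer clustering (1.01 in each). The median over all genes was 0.962 in MGJ and 1.01 in MGJ2. The 2 sets had similar depth in MGJ, with medians of 20983 and 20752 UMIs, and S100a8 was at 104 and 109 CPM. The collagen Col10a1, the defining marker of hypertrophy, stood at 23818 CPM in the hypertrophic-like cells of MGJ and at 555 to 4102 CPM in the other sub-clusters.

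Of the compared nuclear members, 2 were at least 1.5 times higher in each library, against 15% of all genes in MGJ and 17.6% in MGJ2. At least 1.5 times lower were 3 and 6, against 19.7% and 16.7%. Of the 13 mitochondrial genes, 3 and 5 were lower by that much. Both members on the high side were complex IV genes and the same in the 2 libraries. Cox6c (chr15:35925886-35938246, minus strand), an accessory subunit, was at 1024 against 482 CPM in MGJ (2.12, interval 2.08 to 2.17) and 757 against 431 CPM in MGJ2 (1.75, interval 1.60 to 1.92). Cox7a2l (chr17:83501918-83517330, minus strand), the supercomplex factor, was at 317 against 180 CPM (1.76) and 333 against 177 CPM (1.88).

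Ndufa4l2 was lower in hypertrophic-like cells, at 211 against 428 CPM in MGJ (0.493) and 113 against 367 CPM in MGJ2 (0.307). Ndufa4 was lower too, at 0.691 and 0.596, so the Ndufa4l2 share differed less, with 48.7% against 57.1% and 45.0% against 61.4%. Among the other sub-clusters of MGJ, described below, this share was 49.6% and 49.2% in the largest, near the hypertrophic-like one. It was 59.1%, 55.6% and, in the Espn-led one, 85.6% in the rest. In MGJ2 it was 53.6% and 50.6%, so the 61.4% was raised by a few further cells, as was the 367 CPM. Cox4i2 stayed near its level (0.938 and 0.920) while Cox4i1 was at 1.26 and 1.22, and the Cox4i2 share was 20.1% against 25.2% and 23.5% against 28.9%. In MGJ Cox4i2 stood at 188 CPM in hypertrophic-like cells and at 509 CPM in the Espn-led sub-cluster. The remaining sub-clusters of MGJ held it at 154 to 191 CPM. The pair of alternative forms that stood together in chondrocyte-like cells as a whole thus differed in this contrast. Atp5g1 was at 0.743 and 0.733. Glycolysis had 0 of 16 genes higher and 2 lower in MGJ (median 0.862) and 2 of 15 higher and 8 lower in MGJ2 (median 0.623).

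**Figure D4:**
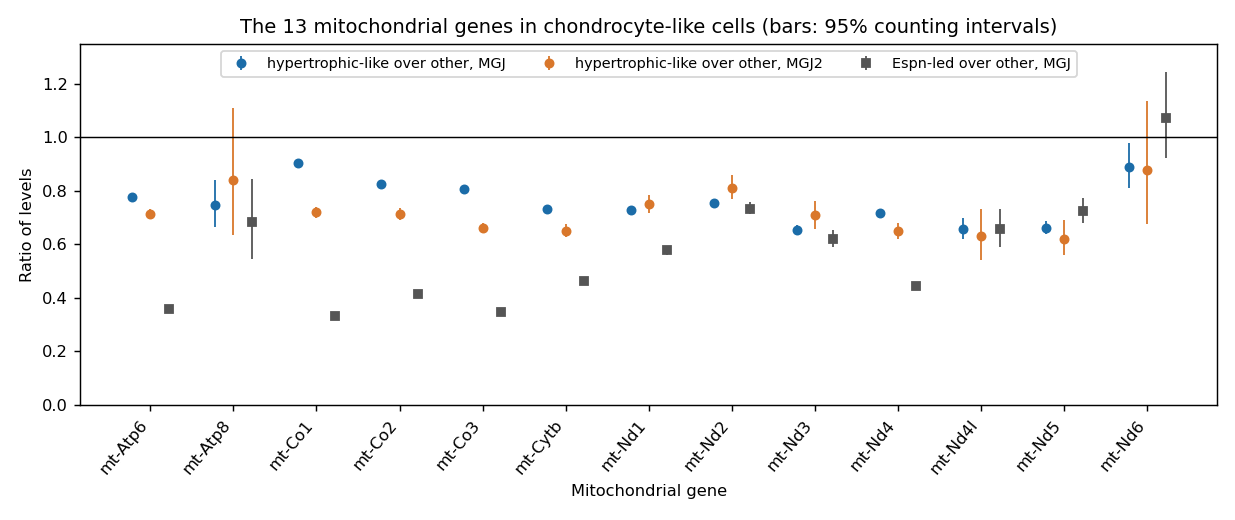
Ratio of levels (vertical axis, linear from 0) for each of the 13 mitochondrial genes (horizontal axis) in hypertrophic-like over other chondrocyte-like cells of MGJ and of MGJ2, and in the Espn-led sub-cluster over other chondrocyte-like cells of MGJ, with bars for 95% counting intervals. All hypertrophic-like ratios lie below 1 (0.622 to 0.903), and the Espn-led ratios are lowest for mt-Co1 at 0.333.

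The chondrocyte-like class of MGJ held 6 sub-clusters, and the low end of the mitochondrial range was not the hypertrophic-like one. A sub-cluster led by Espn, described here because of its values, held 189 cells in MGJ and 1 in MGJ2, so it rests on 1 library. Its mitochondrial members stood at 15920 CPM (15919.6, interval 15789 to 16051), against 30358 CPM in the hypertrophic-like sub-cluster and 37334 to 47197 CPM in the other 4. Its nuclear members stood at 19657 CPM, the highest of the 6, where the others ranged from 16346.5 to 17733 CPM. The ratio of mitochondrial to nuclear members was 0.810, against 1.71 to 2.68 in the other sub-clusters. Its Col2a1 level of 57060 CPM and its median of 18372 UMIs lay within the range of the other sub-clusters. The Ndufa4l2 share was 85.6% and the Cox4i2 share 42.7%, against 48.7% to 59.1% and 18.6% to 25.4% in the others. Without it, the hypertrophic-like over other ratio of MGJ was 0.747 for the mitochondrial and 1.06 for the nuclear members, an alternative chosen after its levels were seen. In MGJ2 the Slc40a1-led sub-cluster (30 cells) had 41811 CPM of mitochondrial members and the Penk-led one (22 cells) 34349 CPM, against 25902 CPM in the hypertrophic-like one.

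**Figure D5:**
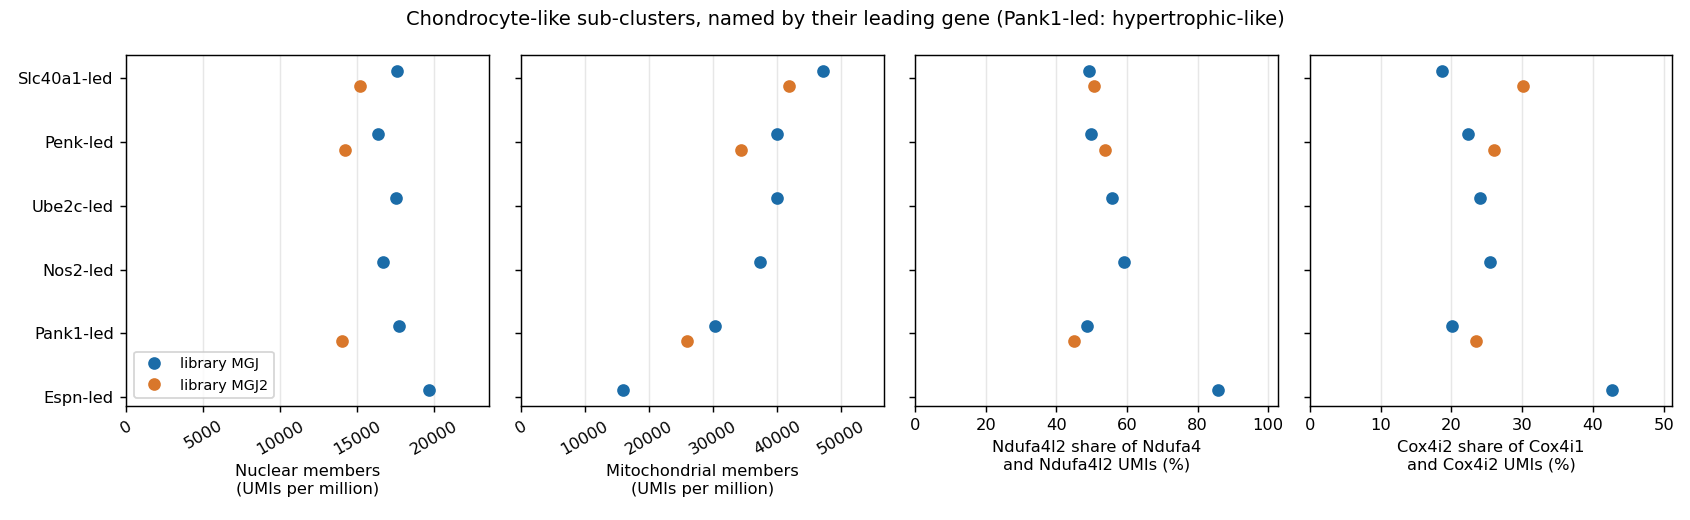
Summed CPM of the nuclear members, summed CPM of the mitochondrial members, and the Ndufa4l2 and Cox4i2 shares in percent (horizontal axes, linear from 0) in the chondrocyte-like sub-clusters named by their leading gene (vertical axis; Pank1-led is hypertrophic-like), with 1 point per library. The Espn-led sub-cluster of MGJ has the lowest mitochondrial level (15920 CPM) and the highest nuclear level (19657 CPM) of the 6.

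Against all other chondrocyte-like cells of MGJ, 4 of 85 nuclear members were at least 1.5 times higher in the Espn-led sub-cluster and 3 lower, where 10.3% and 18.9% of all genes were. Ndufa4l2 was at 997 against 330 CPM (ratio 3.02, interval 2.91 to 3.14) and Cox4i2 at 509 against 175 CPM (2.91, interval 2.77 to 3.07). Cox6b2 (1.92) and Ndufv3, an accessory subunit of the electron input module of complex I (204 against 111 CPM, 1.83), were the others. Lower were Ndufa4 (167 against 307 CPM, 0.544), Uqcrc1, a core protein of complex III (0.660), and the assembly factor Ndufaf6 (0.623, on 8 UMIs). Of the mitochondrial genes, 9 of 13 were at least 1.5 times lower. The lowest ratios were those of the most abundant genes, with mt-Co1 at 1935 against 5814 CPM (0.333), mt-Co3 at 0.347, mt-Atp6 at 0.359 and mt-Co2 at 0.414. The complex I genes mt-Nd4 (0.444) and mt-Nd1 (0.578) and the complex III gene mt-Cytb (0.463) followed, and mt-Nd6 was at 1.07.

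Glycolysis and hypoxia genes took part in forming this sub-cluster, so their values describe it and are no separate support. Of 16 glycolysis genes 12 were at least 1.5 times higher and 1 lower (Hk2, 0.564), with summed levels of 15022 against 5138 CPM, Gapdh at 4.49 and Ldha, which makes lactate, at 2.67. Of 8 hypoxia-linked genes 7 were higher, with Car9, a carbonic anhydrase of the cell surface, at 10.7 and Bnip3, a receptor in the removal of mitochondria, at 4.89. The tricarboxylic acid cycle had 0 of 13 higher and 1 lower (median 0.898), and complex II 0 of 4 in either direction (median 1.09). The genes for transcription and upkeep of mitochondrial RNA had 1 of 10 higher and 1 lower (median 1.10), and the biogenesis regulators 0 of 5 in either direction.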

How the data were processed

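Callus cells of 2 libraries were profiled by 3′ single-cell RNA sequencing. Per the file headers the authors made the deposited UMI counts per gene and barcode with Cell Ranger 4.0.0, and the submitters' processing notes name GRCm38 and Seurat. The deposited counts are not normalized. Free RNA was not removed here.

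Barcodes with at least 200 genes and at most 20% mitochondrial UMIs were kept, and doublets were called by simulation and removed. Cells were clustered without the members or any mitochondrial gene (2000 variable genes, 30 components, 15 neighbours, Leiden resolution 1, and 0.5 for chondrocyte sub-clusters; scanpy 1.11.5, leidenalg 0.10.2, Python 3.11.15). Clusters were named from 28 marker lists, with naming thresholds set after their leading genes were seen, and rebuilt names may differ from those of the study. The members, marker lists, pathway lists and comparisons were chosen with earlier results of these data known. All members could be named, and the mitochondrial genes, the isoform genes and the members with the widest and narrowest ranges were given in full.

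Levels were summed UMIs per 1000000 UMIs with exact Poisson 95% intervals. Ratios had exact conditional binomial intervals, and shares had Clopper-Pearson intervals (scipy 1.17.1). All cover counting error only. With 1 library per group no test was made, and a gene with at least 50 UMIs in the compared sets was counted as higher or lower past 1.5-fold, a count of 0 being set to a floor of 3. The contrast script was tested on simulated data. Other caps, gene minimums, clusterings, weights and denominators were tried.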

Additional observations from a re-analysis of the deposited data

Results flagged for a closer look

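Nuclear members were also counted in the barcodes that the filters removed, which enter no comparison, and they were found there above the level that a count of 0 allows. In barcodes with more than 20% mitochondrial UMIs they stood at 7997 CPM in MGJ (464 barcodes) and 10159 CPM in MGJ2 (133 barcodes). In barcodes with fewer than 200 genes they stood at 1884 CPM in MGJ (371 barcodes) and 1238 CPM in MGJ2 (70 barcodes). All 4 levels lay below those of the kept cells, 16590.2 and 16049 CPM. Mitochondrial UMIs are part of the denominator, so a high mitochondrial share lowers these levels by construction. Levels per UMI of other genes were not compared for these barcodes. Mitochondrial members made up 373895 and 412394 CPM of the first set and 648871 and 860151 CPM of the second. Between 15% and 20% mitochondrial UMIs there were 152 and 34 kept cells, and between 20% and 25% there were 119 and 32 barcodes.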

How the results depend on the processing

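The ratios of the summed levels kept their side of 1 under most alternatives. No paired analysis was possible because the labels give neither groups nor replicate numbers. Of 622 values under alternatives, 373 moved by less than their counting interval, 243 moved by more and 6 changed side. For chondrocyte-like over all other cells in MGJ, the nuclear ratio of 1.06 was 1.07 at a cap of 10% mitochondrial UMIs, 1.07 with no cap, 1.04 at 500 genes, 1.07 and 1.06 at resolutions 0.5 and 2, 1.40 with cells weighted equally and 1.14 without the 50 most abundant other genes. The mitochondrial ratio of 0.956 was, in that order, 0.978, 0.885, 0.941, 0.935, 0.960, 1.26 and 1.02, and 0.949 with doublet calls kept. In MGJ2 the nuclear ratio of 0.888 was 0.900 at the 10% cap, 1.14 with equal weights and 0.976 without the abundant genes. The mitochondrial ratio of 0.825 was 0.794 at that cap, 0.881 with no cap, 0.799 and 0.832 at resolutions 0.5 and 2, 1.12 with equal weights and 0.906 without the abundant genes. For hypertrophic-like over other chondrocyte-like cells in MGJ, the nuclear ratio of 1.04 was 1.05 with no cap and at resolution 2, 1.03 per UMI of genes other than mitochondrial ones, 1.03 without assembly factors, 1.09 without the abundant genes and 1.06 without the Espn-led sub-cluster. The mitochondrial ratio of 0.791 was 0.804 at the 10% cap, 0.754 with no cap, 0.769 with doublet calls kept, 0.763 and 0.794 at resolutions 0.5 and 2, 0.718 with equal weights, 0.828 without the abundant genes and 0.747 without the Espn-led sub-cluster. The last alternative was chosen after seeing the data. In MGJ2 the nuclear ratio of 0.947 was 1.01 with no cap, 0.992 and 1.01 at resolutions 0.5 and 2, 0.897 with equal weights and 0.965 without the abundant genes. The mitochondrial ratio of 0.700 was 0.642 with no cap, 0.686 at resolution 0.5, 0.743 with equal weights and 0.713 without the abundant genes. The cause of these changes was not tested.

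Class levels moved by over 1.5 times in 4 cases. At resolution 0.5 the nuclear level of immature neutrophil-like cells was lower in both libraries, at 0.602 of its value in the lower case, and their mitochondrial level in MGJ2 was at 0.497. With doublet calls kept the mitochondrial level of neutrophil-like cells in MGJ2 was 1.75 times higher. Levels rest on 1 library of pooled animals per set, and the spread between mice was not measured. Small classes limit single genes: only 17 of 90 nuclear members in MGJ had at least 50 UMIs in every class.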
